A study of Mus musculus with 12 samples.

Results

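The genes of ribosome biogenesis and of RNA polymerases I and III were followed through bulk RNA-seq of OT-I cells, which are CD8 T cells of the mouse. There were 12 libraries in 4 groups of 3. Members were the protein-coding genes of the GENCODE M21 annotation whose symbol starts with Nop, Nol, Utp or Rrp followed by a digit, or with Polr1 or Polr3, together with Fbl, Dkc1, Ncl, Npm1, Nolc1, Bop1, Wdr12 and Pes1. This name rule, which used no measured value, gave 59 of 55401 annotated gene identifiers, and 57 of them passed the filter on low counts that left 16426 genes for testing. Nol4 had no count in any library and Nol3 had 2 counts over the day 14 libraries, 1 over the day 4 libraries and none elsewhere, so both were left untested; neither is a ribosome assembly factor.

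All cells carried the OT-I transgene, a T cell receptor that recognises an ovalbumin peptide. No other genetic change is named in the labels. The day 14 and day 4 groups were CD44+ OT-I cells sorted from B78ChOVA melanomas, an ovalbumin-bearing tumour line, 14 or 4 days after their transfer into C57Bl6/J mice, and both are labelled as exhausted. Effector cells had been stimulated with antigen in vitro for 5 days, and naive cells were taken from the lymph nodes of tumour-free OT-I mice. The labels do not say whether the 3 libraries of a group came from separate animals or cultures, so p-values measure the spread between these samples, which may be technical. The effector group differs from the tumour groups in its culture as well as in the absence of a tumour, and these cannot be told apart.

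Ribosomes are built in the nucleolus. RNA polymerase I transcribes the long precursor of the 18S, 5.8S and 28S ribosomal RNAs, and RNA polymerase III transcribes 5S rRNA, tRNAs and other short RNAs. Small nucleolar ribonucleoproteins guide chemical modification of the precursor: box C/D particles add methyl groups through fibrillarin (Fbl), and box H/ACA particles make pseudouridine through dyskerin (Dkc1). The small-subunit processome, which holds most of the Utp proteins, folds and cuts the 40S part, while a separate set of factors that includes the Pes1, Bop1 and Wdr12 complex matures the 60S part. T cells raise ribosome production when they are activated, and MYC is a known regulator of many of these genes.

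Gene counts per library lay between 11937053 and 17094006. The CD8 T cell markers were present in all groups, with a summed level over 8 genes of 3928 to 4093 CPM (counts over the TMM-adjusted library size) in day 14 cells, 2950 to 3476 in day 4 cells, 5269 to 5663 in effector cells and 4287 to 4834 in naive cells. The tumour libraries also held melanoma transcripts: the 12 markers summed to 2079, 883 and 526 CPM in the 3 day 14 libraries and 904 to 1345 in day 4, against 43.0 to 47.4 in effector and 37.0 to 43.8 in naive cells. Tyr, Tyrp1 and Sox10 were at 0 in all effector libraries and Oca2 in all naive ones. The 12 markers of macrophages and monocytes summed to 67.0 to 120.5 CPM in day 14, 64.6 to 136 in day 4, 6.18 to 10.1 in effector and 14.5 to 27.5 in naive cells. Those of dendritic cells (6 genes) summed to 30.9 to 49.0 CPM in day 14, 34.3 to 52.7 in day 4, 7.83 to 17.01 in effector and 4.82 to 6.28 in naive cells. The 5 fibroblast markers summed to 6.99 to 17.9 CPM in day 14, 1.25 to 23.1 in day 4, 0.258 to 1.08 in effector and 0.229 to 1.33 in naive cells, and the 5 B cell markers to 1.53 to 4.62 CPM in day 14, 3.74 to 6.72 in day 4, 8.33 to 13.4 in effector and 18.04 to 21.3 in naive cells. All these cells also express ribosome biogenesis genes, and their part in the member values below was not tested. The cycling-cell genes Mki67, Top2a and Ccnb1 summed to 2998 to 3861 CPM in day 14 and 3174 to 3416 in day 4 cells. Their sum was 94.4, 858 and 148 CPM in the effector libraries and 69.8 to 226 in naive cells, so effector replicate 2 stood apart from the other 2 of its group.

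Across the 4 groups the most frequent order among the members had day 4 cells highest and effector cells lowest. By mean CPM, 30 of the 57 tested members were highest in day 4 cells (52.6%, against 26.2% of all genes tested) and 30 were lowest in effector cells (52.6%, against 26.4%). In 24 members both held. The next most frequent order, with 10 members, had naive cells highest and day 14 cells lowest, and Polr3a, Polr3b, Polr3e and Polr3f were among these 10. Summed over all members the level was 8197, 9235 and 8983 CPM in day 14 cells, 12210, 10790 and 10420 in day 4 cells, 5854, 6204 and 6034 in effector cells and 6341, 6885 and 7117 in naive cells. Every tumour library was above every effector and naive library, and the day 4 libraries were above those of day 14. Ncl and Npm1 made up 40.3% to 59.4% of that sum. Without them it was 3713, 4091 and 4050 CPM in day 14 cells, 4954, 4488 and 4441 in day 4 cells, 3494, 3312 and 3329 in effector cells and 3567, 3995 and 4028 in naive cells, so that day 14 and naive libraries then overlapped. CPM is a share of each library, so the amount of these transcripts per cell was not measured, and in bulk samples fewer cells of a type and less RNA per cell cannot be told apart.

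**Figure D1:**
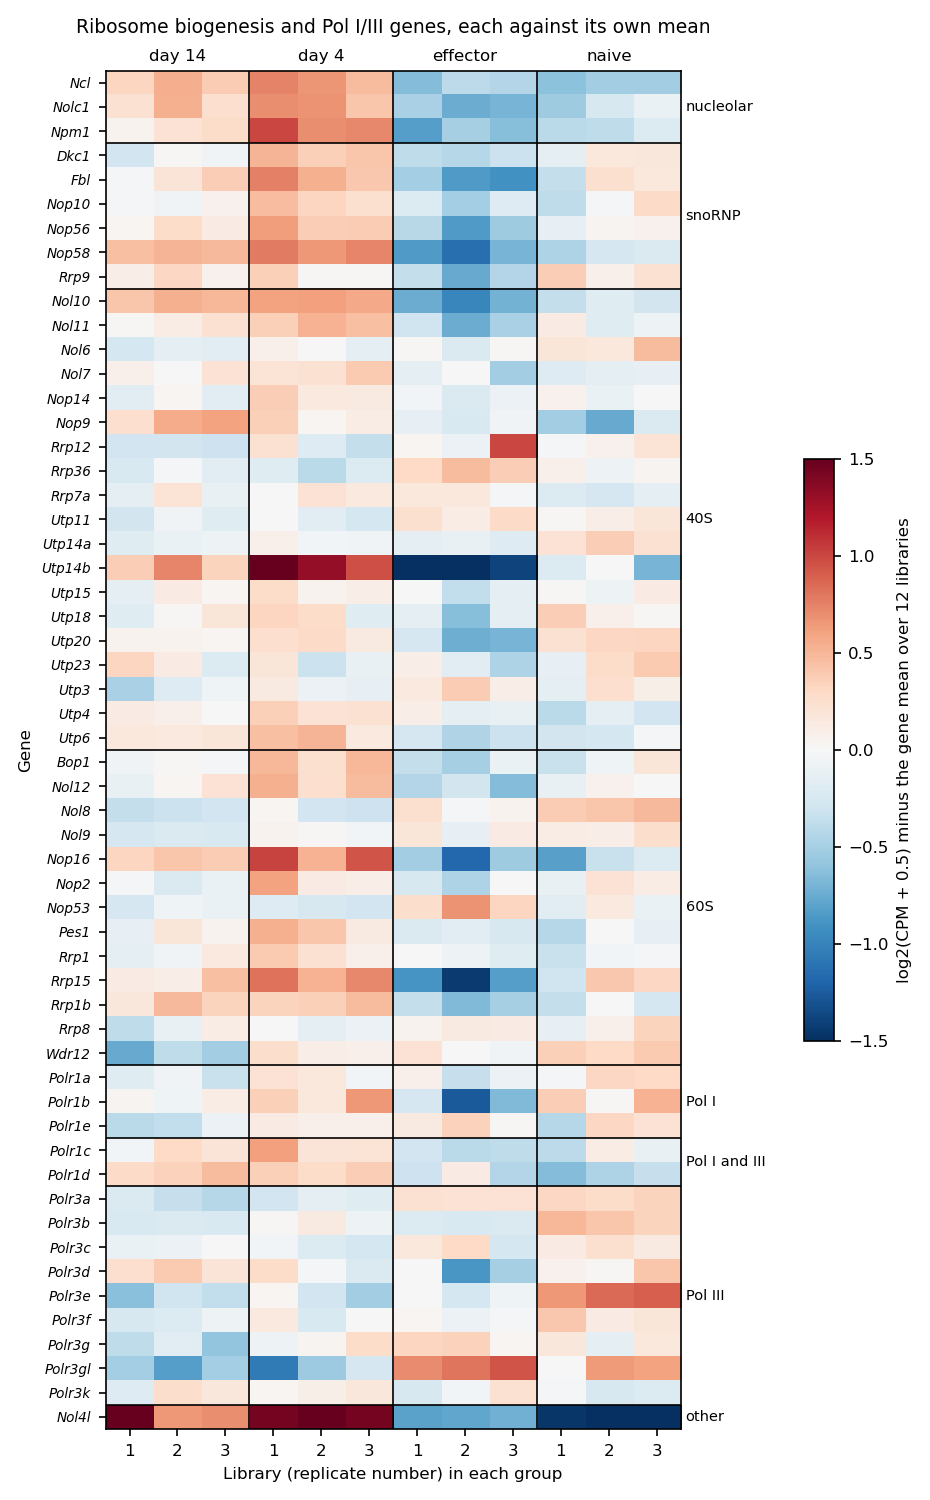
Level of 56 of the 57 tested members in the 12 libraries (columns, 3 replicates per group) as log2(CPM + 0.5) minus the gene's own mean, with rows ordered by role and colours limited to 1.5 in either direction. The nucleolar, snoRNP and many 40S and 60S rows are red in day 4 and blue in effector libraries, while Polr3a and Polr3e are red in naive cells and blue in day 14 cells.

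The size and direction of the differences were tested gene by gene with edgeR's quasi-likelihood test, and a member was called at an adjusted p under 0.05 over all 16426 genes. Effector cells had 2 members higher and 19 lower than naive cells (3.51% and 33.3%). Of all genes tested, 14.6% were called higher and 10.4% lower, 24.9% in all. Day 4 cells had 28 members higher and 8 lower than naive cells (49.1% and 14.0%). Of all genes, 33.4% were higher and 28.8% lower, 62.2% in all. In day 14 cells 14 members were higher and 14 lower than in naive cells (24.6% each). Here 33.6% of all genes were higher and 28.5% lower, 62.1% in all, so the members' share was below that of all genes in both directions. Relative to effector cells, 32 members were higher and 6 lower in day 4 cells (56.1% and 10.5%), against 32.7% and 29.2% of all genes, 61.9% in all. In day 14 cells 25 were higher and 12 lower than in effector cells (43.9% and 21.1%), against 32.6% and 28.4% of all genes, 61.0% in all. Comparisons that set the same group against several others share its libraries and are not independent of each other.

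Median log2 fold changes of the members were -0.28 in effector versus naive, 0.23 in day 4 versus naive, -0.02 in day 14 versus naive, 0.44 in day 4 versus effector and 0.26 in day 14 versus effector, where the median of all genes lay between 0.01 and 0.06. The sign for day 14 versus naive flipped to 0.01 with DESeq2 size factors. With total counts as the scaling the median of all genes moved by -0.11 in effector versus naive and that of the members to -0.42, with 28 members lower. Without effector replicate 2, the effector library with the highest cycling-cell sum, 2 members were higher and 16 lower in effector than in naive cells. All genes called in that comparison went from 4098 to 3241. Leaving out naive replicate 3 gave 14 members lower there, with 3407 genes called in all. In day 4 versus effector, 31 members were higher and 7 lower without effector replicate 2. Without day 14 replicate 1, the library with the highest melanoma marker sum, 24 members were higher and 11 lower in day 14 than in effector cells.

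Day 14 and day 4 tumour cells differed less. No member was called higher in day 14 cells and 5 were called lower, namely Dkc1, Nop14, Npm1, Utp14b and Wdr12 (8.77%). Of all genes, 7.17% were higher and 4.91% lower, 12.1% in all. At an unadjusted p under 0.05, 0 members were higher and 23 lower, and DESeq2 called 0 higher and 7 lower. The members' median log2 fold change was -0.21, that of all genes -0.00, and 8 of 57 members had a value above 0. The count of 5 was 3 without day 4 replicate 1 or day 14 replicate 3 and 8 without effector replicate 2, and the calls of Dkc1, Npm1 and Wdr12 held under all 18 alternatives tried. Day 14 replicate 1, which had the highest melanoma marker sum, also had the lowest member sum of the 6 tumour libraries, and 4 members were lower without it.

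**Figure D2:**
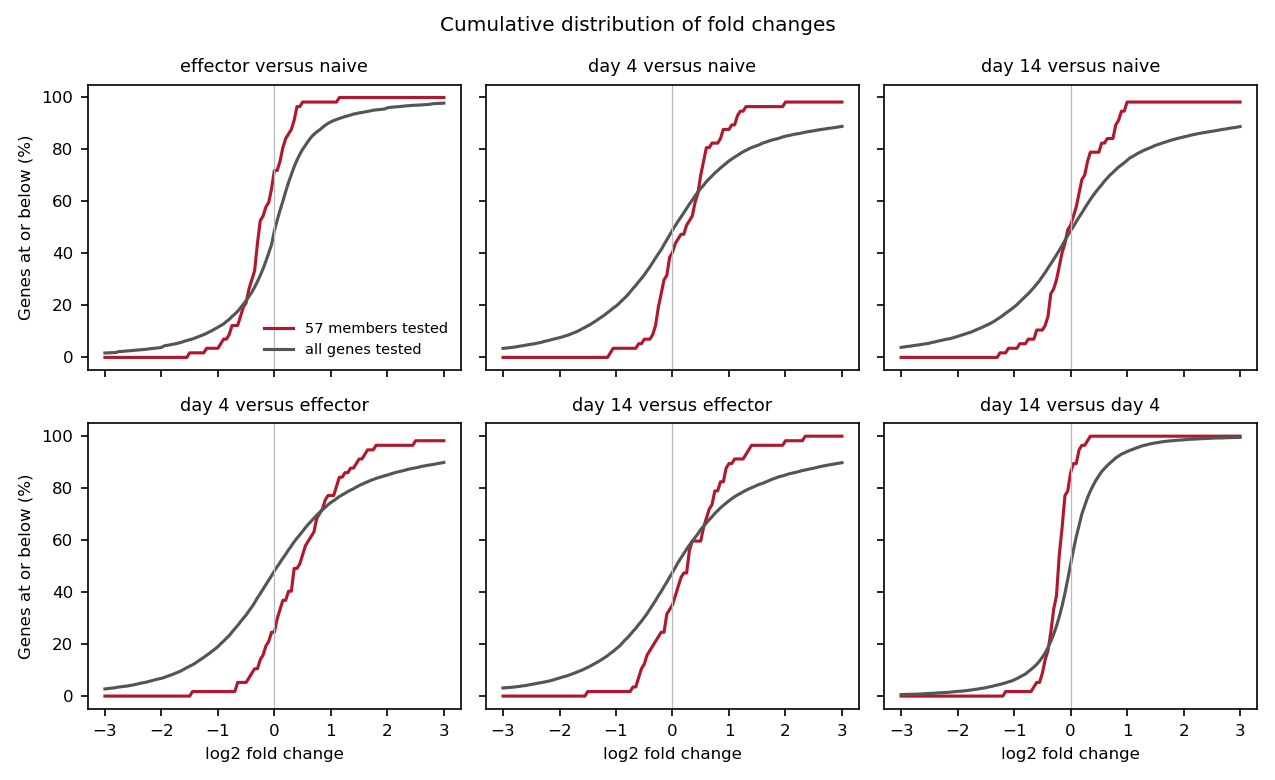
Cumulative percentage of genes (vertical axis) at or below each log2 fold change (horizontal axis) for the 57 tested members and all 16426 genes in 6 comparisons. In day 4 and day 14 versus effector the members' curve lies right of that of all genes around 0, in effector versus naive and in day 14 versus day 4 it lies left of it, and it is steeper in all 6.

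A test of any difference among the 4 groups was passed by 48 of the 57 members, a share of 84.2% beside 74.8% of all genes. Called lower in effector cells than in each of the other 3 groups were 14 members (24.6%, against 4.41% of all genes): Dkc1, Fbl, Nol10, Nol11, Nol12, Nolc1, Nop56, Nop58, Npm1, Polr1b, Rrp15, Rrp9, Utp14b and Utp20. The effector versus naive call of Nol12 was lost without naive replicate 1 (-0.50), 2 (-0.41) or 3 (-0.44), or effector replicate 1 (-0.49) or 3 (-0.40). It was also lost without day 14 replicate 2 (-0.45), without the filter on low counts (-0.47) or with the compared groups alone (-0.49). That of Nol11 was lost without naive replicate 1 (-0.37). Lost calls of Dkc1, Nolc1 and Npm1 are given below. Higher at day 14 and at day 4 than in effector and naive cells alike were 12 members (21.1%, against 22.7%), a share near that of all genes. Lower in the same sense were 3, Nol8, Polr3a and Polr3gl (5.26%, against 17.8%). For Nol8 the day 4 and effector libraries overlapped, with day 4 replicate 1 at 121.5 CPM and effector replicate 2 at 116.8 CPM. Its day 4 versus effector call was lost with DESeq2 (-0.22), DESeq2 size factors (-0.22) or total counts as the scaling (-0.19). The call was also lost without the filter on low counts (-0.23) and with the compared groups alone (-0.26). Several single libraries mattered too, such as effector replicate 1 (-0.15 without it). Polr3k, Rrp8, Utp18 and Utp23 were called in no comparison. The gap between the highest and the lowest group mean was 0.23 on the log2 scale for Rrp8, 0.71 for the median member and 3.60 for Nol4l.

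The abundant nucleolar proteins carried the largest part of the counts. Nucleolin (Ncl, chr1:86344719-86359400 on GRCm38, minus strand), an RNA-binding protein of the nucleolus, had 2367, 2768 and 2465 CPM in day 14 cells, 3179, 3006 and 2623 CPM in day 4 cells, 1205, 1448 and 1397 CPM in effector cells and 1238, 1322 and 1314 CPM in naive cells. All 6 tumour libraries lay above all 6 others, while effector and naive libraries overlapped. Its log2 fold change was 0.91 ± 0.09, adjusted p = 4.06e-07, in day 14 versus effector, and 1.18 ± 0.09, adjusted p = 1.75e-08, in day 4 versus naive; here and below a value after ± beside a log2 fold change is its SE. Nucleophosmin (Npm1, chr11:33152287-33163206, minus strand), a chaperone of histones and ribosomal proteins, had 2117, 2376 and 2468 CPM in day 14 cells, 4074, 3298 and 3352 CPM in day 4 cells, 1154, 1443 and 1308 CPM in effector cells and 1536, 1568 and 1775 CPM in naive cells. The 4 groups did not overlap for Npm1: day 4 was highest, day 14 next, then naive, and effector lowest. It fell in day 14 versus day 4 (-0.62 ± 0.10, adjusted p = 0.000712) and in effector versus naive (-0.32 ± 0.10, adjusted p = 0.0314).

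Nolc1, a chaperone of small nucleolar ribonucleoproteins, had 106, 131 and 108 CPM in day 14 cells, 147, 144 and 120.4 CPM in day 4 cells, 64.1, 53.5 and 55.4 CPM in effector cells and 61.9, 76.3 and 84.1 CPM in naive cells. Tumour libraries were all above the others, at 0.99 ± 0.13, adjusted p = 4.48e-06 in day 14 versus effector, and effector and naive libraries overlapped. The call of Npm1 in effector versus naive was lost without naive replicate 2 (-0.35), naive replicate 3 (-0.25) or effector replicate 1 (-0.28). That of Nolc1 (-0.36 ± 0.13, adjusted p = 0.0471) was lost without naive replicate 2 (-0.34), naive replicate 3 (-0.26), effector replicate 2 (-0.34), effector replicate 3 (-0.37), day 4 replicate 1 (-0.36) or day 4 replicate 2 (-0.36). Set per length, as RPKM on the union of exons, Npm1 stood highest of all the members, with mean levels of 871 in day 14, 1341 in day 4, 488 in effector and 610.3 in naive cells. Nolc1 was at 28.9, 34.5, 14.5 and 18.7 in the same order. The exons of Ncl overlap Snora75 and mmu-mir-3535 over 2.12% of their length together with a further small RNA gene.

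**Figure D3:**
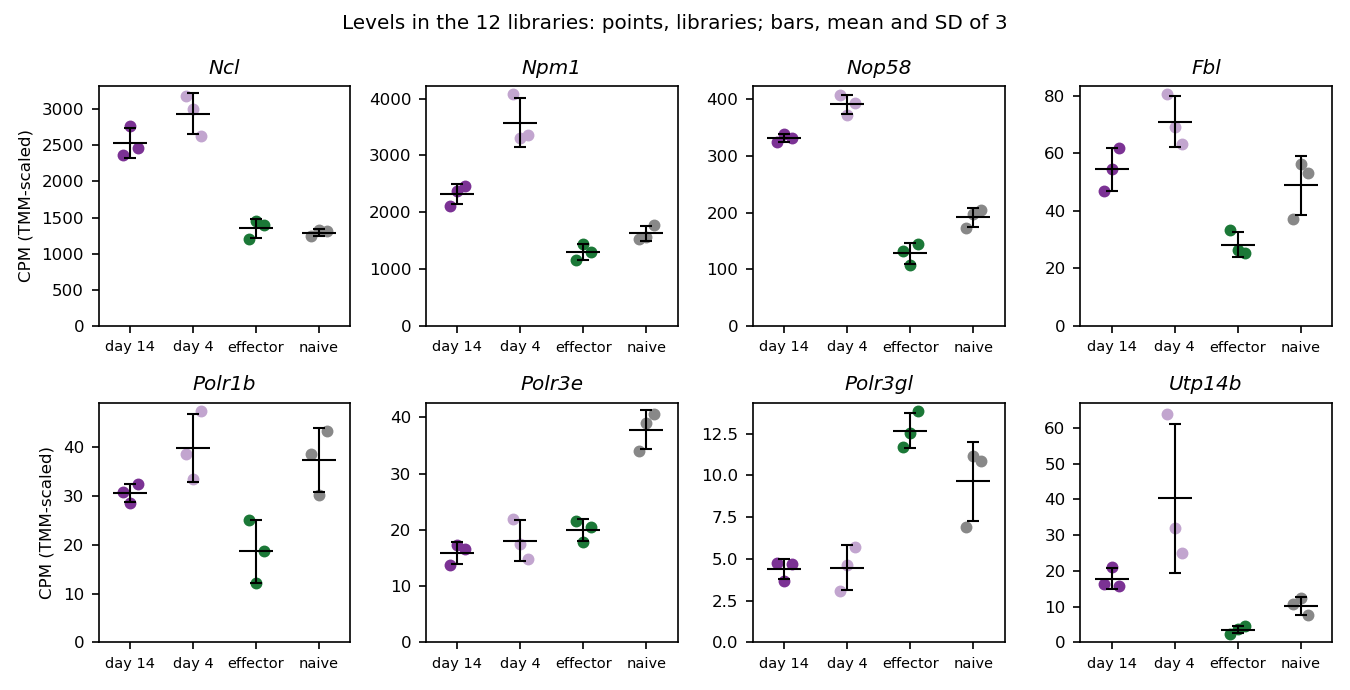
CPM in each of the 12 libraries (points) with the mean and SD of 3 (bars) for 8 members in day 14, day 4, effector and naive cells, each on its own linear axis from 0. Ncl, Npm1 and Nop58 are high in both tumour groups, Polr3e is high in naive cells only, Polr3gl is low in both tumour groups, and Utp14b spreads widely among day 4 libraries.

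The proteins of the box C/D and H/ACA particles were mostly lowest in effector cells. Of the 6 members 5 were lower in effector than in naive cells, 6 were higher in day 4 than in effector cells and 5 were higher in day 14 than in effector cells, with median log2 fold changes of -0.58, 0.93 and 0.72. These were 83.3%, 100% and 83.3% of the 6, against 10.4%, 32.7% and 32.6% of all genes. Relative to naive cells 1 of the 6 was higher in day 14 (16.7%, against 33.6% of all genes) and 5 were higher in day 4 (83.3%, against 33.4%). Nop58 (chr1:59684971-59719044, plus strand), a core scaffold of the C/D particle, had 324, 338 and 331 CPM in day 14 cells, 407, 372 and 394 CPM in day 4 cells, 132, 108 and 146 CPM in effector cells and 172, 198 and 204 CPM in naive cells. No group overlapped another. Its log2 fold change was 1.37 ± 0.10, adjusted p = 9.60e-09, in day 14 versus effector, 1.61 ± 0.10, adjusted p = 1.36e-09, in day 4 versus effector, and -0.58 ± 0.10, adjusted p = 0.000565, in effector versus naive. Its partner Nop56 had 259, 309 and 278 CPM in day 14 cells, 395, 329.5 and 330.5 CPM in day 4 cells, 190.1, 141 and 176 CPM in effector cells and 234, 261 and 267 CPM in naive cells. Effector libraries were below all others, and the difference from naive was -0.59 ± 0.11, adjusted p = 0.00117.

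Fibrillarin (Fbl), the methyltransferase of the C/D particle, had 46.9, 54.4 and 61.8 CPM in day 14 cells, 80.5, 69.2 and 63.2 CPM in day 4 cells, 33.2, 26.3 and 25.2 CPM in effector cells and 37.1, 56.3 and 53.2 CPM in naive cells. Effector libraries again were the lowest of all, with -0.79 ± 0.16, adjusted p = 0.0022 against naive and 0.94 ± 0.16, adjusted p = 0.000112 for day 14 versus effector. Day 14 and naive libraries overlapped (0.15 ± 0.16, adjusted p = 0.417). Dyskerin (Dkc1), the pseudouridine synthase of the H/ACA particle, had 233, 289.5 and 274 CPM in day 14 cells, 406, 365 and 379.5 CPM in day 4 cells, 218, 212 and 228 CPM in effector cells and 256, 317 and 322 CPM in naive cells. Day 4 libraries were above all others. Dkc1 was lower in day 14 than in day 4 cells (-0.53 ± 0.10, adjusted p = 0.00191) and higher in day 14 than in effector cells (0.28 ± 0.10, adjusted p = 0.025), a call that was lost without day 14 replicate 2 (0.21). Nop10, a small H/ACA subunit, was higher in day 4 than in effector cells (0.65 ± 0.15). Rrp9, a protein of the U3 particle that guides early cleavage, was lower in effector than in naive cells (-0.77 ± 0.19). Rrp9 had the lowest level per length of the 6, at 4.31 RPKM in day 14 cells and 2.65 in effector cells. The exons of Nop56 overlap Snord57, other small RNAs and the antisense end of Idh3b over 8.12% of their length.

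Of the 19 members of the small-subunit processome and other 40S factors, 6 were lower in effector than in naive cells (31.6%, against 10.4% of all genes). Relative to naive cells 9 were higher and 2 lower in day 4 (47.4% and 10.5%, against 33.4% and 28.8%). Relative to effector cells 7 were higher and 4 lower in day 14 (36.8% and 21.1%), near the 32.6% and 28.4% of all genes. Nol10, a processome component, averaged 86.2 ± 3.74 CPM in day 14 cells, 93.3 ± 1.68 in day 4 cells, 35.0 ± 3.60 in effector cells and 50.9 ± 3.26 in naive cells (SD, n = 3 each). The groups did not overlap, at 1.30 ± 0.10, adjusted p = 1.10e-08 in day 14 versus effector. Utp20, a very large scaffold protein, averaged 97.2 ± 0.92 CPM in day 14 cells, 110.2 ± 5.77 in day 4 cells, 64.3 ± 12.5 in effector cells and 115 ± 4.13 in naive cells. It fell in effector versus naive by 0.84 ± 0.11 on the log2 scale. Day 14 cells stood between both (0.59 ± 0.11, adjusted p = 0.00023 versus effector). Nol11, Utp4 and Utp15 belong to the subcomplex that in human cells also bears on rRNA transcription. Nol11 averaged 62.0 ± 4.67 CPM in day 14 cells, 77.7 ± 4.48 in day 4 cells, 40.2 ± 6.16 in effector cells and 55.5 ± 5.998 in naive cells, with 0.62 ± 0.12 in day 14 versus effector. Utp4 was higher in day 4 than in effector cells (0.31 ± 0.10) and so was Utp15 (0.31 ± 0.11), the second a call that was lost without effector replicate 2 (0.25) or day 4 replicate 1 (0.24).

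Members of this role also fell. Nol6, which forms a subcomplex with Rrp7a, had 39.4, 42.8 and 42.0 CPM in day 14 cells, 49.9, 47.0 and 42.6 CPM in day 4 cells, 47.8, 40.7 and 47.7 CPM in effector cells and 53.7, 53.0 and 66.0 CPM in naive cells. Naive libraries were above those of all other groups. Its difference in effector versus naive (-0.34 ± 0.12, adjusted p = 0.0402) was not called without naive replicate 3 (-0.23), effector replicate 2 (-0.30), day 4 replicate 2 (-0.34) or day 14 replicate 2 (-0.34), nor without the filter on low counts (-0.36). Utp14a, known from yeast as the activator of a processome helicase, was lower in effector, day 4 and day 14 cells than in naive cells, by -0.42 ± 0.08, -0.28 ± 0.08 and -0.39 ± 0.08 log2 units; the day 4 call was lost without the filter on low counts (-0.25). Utp3, Utp11 and Rrp36 were lower in day 14 than in effector cells (-0.45 ± 0.13, -0.39 ± 0.11 and -0.53 ± 0.16), and the call of Rrp36 was lost without the filter on low counts (-0.49). Rrp12, known from yeast for a part in subunit export, had 19.6, 19.8 and 19.5 CPM in day 14 cells, 28.5, 21.1 and 18.8 CPM in day 4 cells, 24.7, 22.7 and 49.0 CPM in effector cells and 23.8, 25.3 and 27.9 CPM in naive cells. A single library, effector replicate 3, stood far above the rest. The lower value in day 14 versus effector (-0.71 ± 0.24, adjusted p = 0.0199) was lost without effector replicate 3 (-0.24) or day 14 replicate 3 (-0.67), and with the compared groups alone (-0.71). Nop14, a processome scaffold, had 74.4, 85.2 and 74.7 CPM in day 14 cells, 108, 92.5 and 91.5 CPM in day 4 cells, 80.8, 71.5 and 78.3 CPM in effector cells and 87.0, 77.6 and 83.8 CPM in naive cells. Its day 14 and day 4 libraries did not overlap (-0.32 ± 0.10, adjusted p = 0.0449), but the call was lost without naive replicate 3 (-0.32), day 4 replicate 1 (-0.24), day 4 replicate 2 (-0.35), day 14 replicate 1 (-0.28) or day 14 replicate 3 (-0.30). It was also lost without the filter on low counts (-0.32) and with the compared groups alone (-0.32). Nop9, whose exons are overlapped over 29.9% by Cideb on the other strand, averaged 51.9 ± 6.71 CPM in day 14 cells, 41.9 ± 5.10 in day 4 cells, 33.8 ± 2.16 in effector cells and 26.4 ± 5.08 in naive cells. Ambiguous reads were left out of these unstranded counts, and how far Cideb bears on the Nop9 values was not tested.

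Utp14b (chr1:78658038-78671512, plus strand), a retrogene copy of Utp14a known for its role in mouse spermatogenesis, gave the widest change of the role. It had 16.4, 21.2 and 15.9 CPM in day 14 cells, 64.0, 32.0 and 24.9 CPM in day 4 cells, 2.44, 3.87 and 4.48 CPM in effector cells and 10.8, 12.5 and 7.57 CPM in naive cells. Effector libraries were lowest and the 3 day 4 libraries spread over a wide range, replicate 1 above the other 2. The log2 fold change was 3.49 ± 0.36, adjusted p = 2.48e-06, in day 4 versus effector, 2.31 ± 0.36, adjusted p = 9.64e-05, in day 14 versus effector and -1.52 ± 0.36, adjusted p = 0.00854, in effector versus naive. In day 14 versus day 4 (-1.18 ± 0.32, adjusted p = 0.0284) the call was lost without day 4 replicate 1 (-0.68), day 14 replicate 1 (-1.12) or day 14 replicate 3 (-1.11), and with the compared groups alone (-1.18). The gene lies within Acsl3, an acyl-CoA synthetase gene on the same strand, and Acsl3 had 16.9, 10.4 and 7.92 CPM in day 14, 40.6, 20.2 and 16.2 CPM in day 4, 2.51, 1.20 and 3.55 CPM in effector and 6.72, 6.12 and 6.42 CPM in naive cells. Its log2 fold change was 3.39 ± 0.43 in day 4 versus effector, so both genes were higher there. Exons of Acsl3 overlap 3.18% of the exon length of Utp14b, ambiguous reads were left out of the counts, and how far reads of one gene were counted for the other was not tested.

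Among the 13 members of 60S maturation, 7 were higher and 1 lower in day 4 than in naive cells (53.8% and 7.69%, against 33.4% and 28.8% of all genes). In effector versus naive 1 was higher and 3 lower (7.69% and 23.1%, against 14.6% and 10.4%). Relative to effector cells 4 were higher and 4 lower in day 14 (30.8% each), near the 32.6% and 28.4% of all genes. Rrp15, a factor of the early 60S particle, had 26.7, 26.3 and 33.8 CPM in day 14 cells, 43.7, 35.5 and 40.6 CPM in day 4 cells, 13.1, 8.76 and 13.6 CPM in effector cells and 19.9, 32.7 and 30.6 CPM in naive cells. Effector libraries were below all others (-1.23 ± 0.20, adjusted p = 0.000326 versus naive, 1.29 ± 0.20, adjusted p = 3.84e-05 for day 14 versus effector). Nop16 averaged 61.7 ± 2.10 CPM in day 14 cells, 85.6 ± 14.8 in day 4 cells, 28.8 ± 6.90 in effector cells and 35.3 ± 7.51 in naive cells, with 1.10 ± 0.19, adjusted p = 0.000146 in day 14 versus effector. Nop53, which in yeast brings the RNA exosome to the pre-60S particle, had 216, 246 and 241 CPM in day 14 cells, 225, 217 and 211 CPM in day 4 cells, 310.4, 411 and 323 CPM in effector cells and 229.5, 284 and 239.5 CPM in naive cells. Effector libraries were the highest (0.47 ± 0.11, adjusted p = 0.00455 versus naive and -0.57 ± 0.11, adjusted p = 0.000264 for day 14 versus effector). Nol8 was lower in day 14 than in effector and naive cells (-0.41 ± 0.10 and -0.75 ± 0.10). Rrp1b was higher than in both (0.84 ± 0.12 and 0.54 ± 0.12).

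The 3 proteins of the Pes1, Bop1 and Wdr12 complex, which act together in 60S processing, did not share 1 pattern. Pes1 had 25.6, 31.5 and 28.8 CPM in day 14 cells, 40.6, 37.2 and 30.6 CPM in day 4 cells, 23.8, 24.6 and 23.6 CPM in effector cells and 20.6, 27.7 and 25.5 CPM in naive cells. Its day 4 libraries were above all effector and naive ones (0.59 ± 0.15, adjusted p = 0.0024 versus effector). Bop1 had 21.6, 22.6 and 22.1 CPM in day 14 cells, 31.7, 26.5 and 31.8 CPM in day 4 cells, 17.4, 15.7 and 20.9 CPM in effector cells and 17.6, 21.4 and 25.5 CPM in naive cells. Day 4 libraries again were above all others (0.73 ± 0.16, adjusted p = 0.000827 versus effector, and 0.48 ± 0.16, adjusted p = 0.0155 versus naive, the second lost without naive replicate 1 (0.35) or day 4 replicate 3 (0.44)). Wdr12 had 29.2, 38.3 and 34.6 CPM in day 14 cells, 59.99, 53.3 and 52.4 CPM in day 4 cells, 58.0, 49.8 and 48.1 CPM in effector cells and 64.1, 61.3 and 65.4 CPM in naive cells. Here day 14 libraries were below all others, and Wdr12 was lower in day 14 cells than in day 4 cells (-0.70 ± 0.12, adjusted p = 0.000754), effector cells (-0.61 ± 0.12, adjusted p = 0.000274) and naive cells (-0.90 ± 0.12, adjusted p = 5.24e-06). Per length, 60S members ranged in day 14 cells from Wdr12 at 2.85 RPKM to Rrp1 at 89.8 RPKM.

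Of the 3 Polr1 members specific to RNA polymerase I, 1 was lower in effector than in naive cells (33.3%, against 10.4% of all genes). In day 14 versus effector 1 was higher and 1 lower (33.3% each, against 32.6% and 28.4%). In day 4 versus effector 1 was higher (33.3%, against 32.7%), and in day 14 versus naive 1 was lower (33.3%, against 28.5%). None was called in day 4 versus naive or day 14 versus day 4. Polr1a, the largest catalytic subunit, had 114, 125 and 102.6 CPM in day 14 cells, 151, 144 and 126 CPM in day 4 cells, 137, 101 and 121 CPM in effector cells and 127, 159.8 and 159 CPM in naive cells. It was lower in day 14 than in naive cells (-0.39 ± 0.12, adjusted p = 0.0114), a call lost without naive replicate 2 (-0.33) or day 14 replicate 3 (-0.32), and day 4, effector and naive libraries overlapped. Polr1b (chr2:129100995-129126594, plus strand), the second catalytic subunit, had 30.7, 28.6 and 32.4 CPM in day 14 cells, 38.6, 33.5 and 47.4 CPM in day 4 cells, 25.1, 12.2 and 18.8 CPM in effector cells and 38.7, 30.2 and 43.3 CPM in naive cells. All effector libraries were below those of every other group. Its log2 fold change was -0.997 ± 0.21, adjusted p = 0.0032, in effector versus naive, 1.09 ± 0.21, adjusted p = 0.000407, in day 4 versus effector and 0.71 ± 0.21, adjusted p = 0.00975, in day 14 versus effector. Polr1e had 20.6, 21.1 and 25.6 CPM in day 14 cells, 29.8, 28.9 and 28.8 CPM in day 4 cells, 30.1, 34.9 and 27.8 CPM in effector cells and 20.1, 34.1 and 31.9 CPM in naive cells. Its lower value in day 14 versus effector (-0.46 ± 0.17, adjusted p = 0.0301) was lost without effector replicate 1 (-0.45), effector replicate 2 (-0.34), day 4 replicate 3 (-0.43), day 14 replicate 1 (-0.40) or day 14 replicate 2 (-0.42), and with total counts as the scaling (-0.40). The 2 subunits that polymerases I and III have in common were both higher in tumour cells than in effector cells. Polr1c averaged 47.3 ± 5.76 CPM in day 14 cells, 54.2 ± 9.35 in day 4 cells, 33.0 ± 1.52 in effector cells and 39.1 ± 6.74 in naive cells, with 0.52 ± 0.15, adjusted p = 0.00605 in day 14 versus effector. Polr1d averaged 158 ± 10.4 CPM in day 14 cells, 154 ± 4.95 in day 4 cells, 107 ± 22.9 in effector cells and 87.3 ± 9.23 in naive cells, with 0.56 ± 0.12, adjusted p = 0.000929.

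Of the 10 subunits specific to RNA polymerase III, 6 were lower and 1 higher in day 14 than in naive cells (28.5% of all genes were lower and 33.6% higher). Of the same 10, 5 were lower and 1 higher in day 4 than in naive cells (28.8% and 33.4% of all genes), with median log2 fold changes of -0.43 and -0.30. Over the 42 members that are no polymerase subunits, 12 were higher and 7 lower in day 14 than in naive cells and 25 higher and 3 lower in day 4 than in naive cells, with medians of 0.05 and 0.36. The sum over the 10 subunits was 302, 322 and 318 CPM in day 14 cells, 344, 336 and 331 in day 4 cells, 352, 353 and 339 in effector cells and 422, 412 and 411 in naive cells, and all naive libraries were above the rest.

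Polr3e (chr7:120917744-120947432, plus strand), part of a subunit pair that resembles the factor TFIIF, had 13.7, 17.4 and 16.6 CPM in day 14 cells, 21.97, 17.6 and 14.8 CPM in day 4 cells, 21.5, 17.8 and 20.5 CPM in effector cells and 34.0, 39.0 and 40.6 CPM in naive cells. Naive libraries were above all others, and the other 3 groups lay close together. It was lower in effector cells (-0.92 ± 0.16, adjusted p = 0.000584), day 4 cells (-1.06 ± 0.16, adjusted p = 3.00e-05) and day 14 cells (-1.25 ± 0.16, adjusted p = 5.76e-06) than in naive cells. The catalytic subunit Polr3b had 67.7, 68.6 and 67.8 CPM in day 14 cells, 80.6, 87.0 and 75.5 CPM in day 4 cells, 69.0, 67.9 and 68.3 CPM in effector cells and 113, 106 and 100.2 CPM in naive cells. It too was highest in naive cells, at -0.64 ± 0.09, adjusted p = 5.96e-05 in effector versus naive and -0.65 ± 0.09 in day 14 versus naive. The largest subunit, Polr3a, split the groups differently: it averaged 39.7 ± 2.88 CPM in day 14 cells, 43.3 ± 2.30 in day 4 cells, 58.3 ± 0.227 in effector cells and 61.9 ± 1.45 in naive cells, and tumour libraries were below both other groups (-0.56 ± 0.10, adjusted p = 9.78e-05 in day 14 versus effector). Polr3f was lower in day 14 than in naive cells (-0.42 ± 0.12). Polr3c, at -0.34 ± 0.12 in day 4 versus naive, lost its call without naive replicate 2 (-0.30), day 4 replicate 2 (-0.32) or day 4 replicate 3 (-0.29). Per length Polr3c stood highest of the 10 in each group, between 17.3 RPKM in day 4 and 21.9 RPKM in naive cells.

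Polr3g and Polr3gl encode alternative versions of 1 subunit, so that a polymerase III complex holds one or the other; Polr3gl is the version of most differentiated cells and Polr3g that of embryonic stem cells. Polr3gl (chr3:96577872-96594181, minus strand) had 4.75, 3.70 and 4.72 CPM in day 14 cells, 3.08, 4.62 and 5.74 CPM in day 4 cells, 11.7, 12.5 and 13.8 CPM in effector cells and 6.94, 11.1 and 10.8 CPM in naive cells. Tumour libraries were below all effector and naive libraries. The log2 fold change was -1.53 ± 0.26, adjusted p = 0.000101, in day 14 versus effector and -1.10 ± 0.26, adjusted p = 0.00175, in day 4 versus naive. Polr3g had 12.2, 14.3 and 10.5 CPM in day 14 cells, 15.2, 16.5 and 19.5 CPM in day 4 cells, 20.2, 20.4 and 16.4 CPM in effector cells and 18.1, 14.6 and 17.9 CPM in naive cells. Day 14 libraries were lowest, at -0.62 ± 0.17, adjusted p = 0.00542 versus effector and -0.45 ± 0.17, adjusted p = 0.0342 versus naive, the second lost without naive replicate 1 (-0.40), naive replicate 3 (-0.40), day 14 replicate 1 (-0.44) or day 14 replicate 3 (-0.35). That call was also lost without the filter on low counts (-0.43) and with the compared groups alone (-0.45). In day 4 versus naive Polr3g differed by 0.02 ± 0.17, adjusted p = 0.929. Polr3d was higher in day 14 than in effector cells (0.72 ± 0.23, adjusted p = 0.0127).

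**Figure D4:**
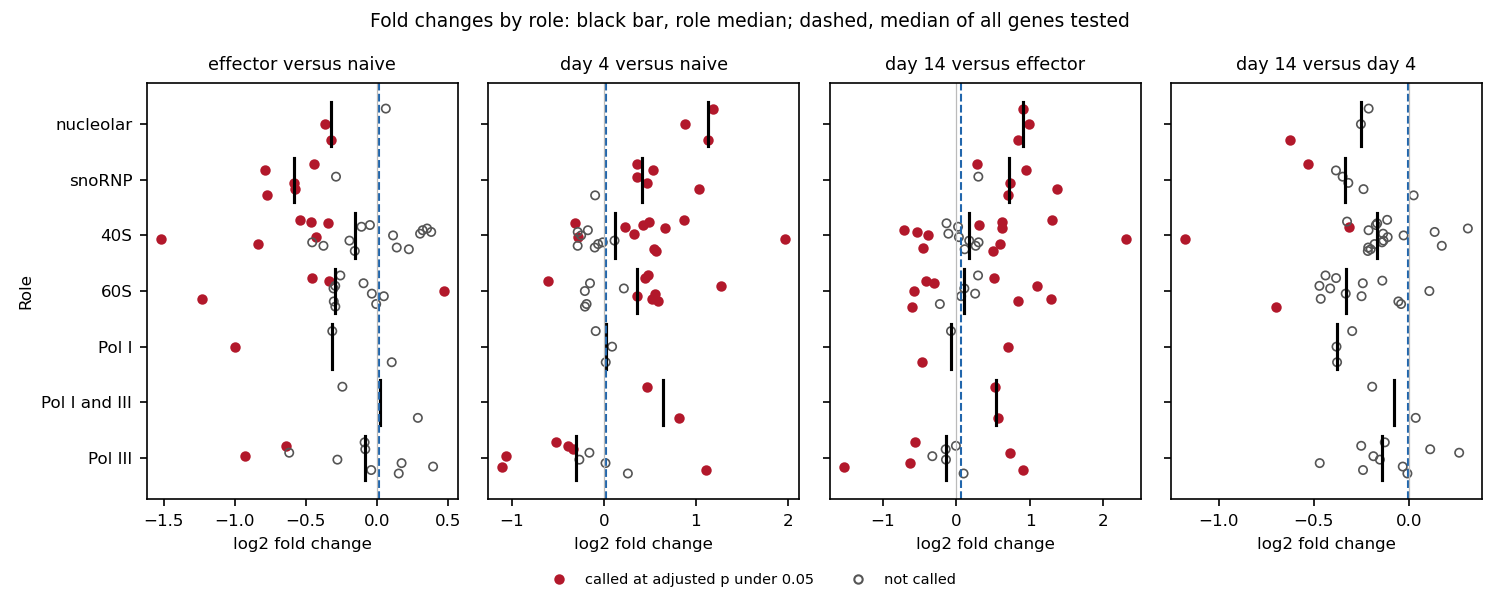
Log2 fold change (horizontal axis) of each tested member, in rows by role, in 4 comparisons; filled points were called, black bars are role medians and the dashed line is the median of all genes tested. Nucleolar and snoRNP points lie right of 0 in day 14 versus effector, most polymerase III points lie left of 0 in day 4 versus naive, and in day 14 versus day 4 the medians of all 7 roles lie below 0. Nol4l is not drawn.

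Nol4l matches the name rule but is not known as a ribosome factor, and it had the widest range of all members. It had 17.2, 8.98 and 9.31 CPM in day 14 cells, 15.8, 18.5 and 15.9 CPM in day 4 cells, 2.94, 3.01 and 3.17 CPM in effector cells and 1.70, 1.51 and 0.917 CPM in naive cells. Both tumour groups were above effector cells, which in turn were above naive cells, with 1.96 ± 0.28, adjusted p = 1.73e-05 in day 14 versus effector and 1.14 ± 0.32, adjusted p = 0.0166 in effector versus naive, the second lost without naive replicate 3 (0.92) or with the compared groups alone (1.10). Leaving it out would remove 1 of the 2 members that were higher in effector than in naive cells; the other is Nop53.

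The wider pathway was read from lists of 142 further genes, of which 141 were tested. Over all of them 6 were higher and 39 lower in effector than in naive cells (4.26% and 27.7%, against 14.6% and 10.4% of all genes). There were 70 higher and 26 lower in day 4 than in effector cells (49.6% and 18.4%, against 32.7% and 29.2%). In day 14 cells 64 were higher and 29 lower than in effector cells (45.4% and 20.6%, against 32.6% and 28.4%), and 3 were higher and 7 lower in day 14 than in day 4 cells (2.13% and 4.96%, against 7.17% and 4.91%). Of the 10 other snoRNP proteins and assembly factors, 10 were higher in day 4 than in effector cells (100%, against 32.7% of all genes). In day 14 versus effector 8 were higher (80.0%, against 32.6%). Of the same 10, 6 were higher in day 14 than in naive cells (33.6% of all genes were), where 1 of the 6 snoRNP members was. Nhp2 (log2 fold change 1.31 ± 0.15, adjusted p = 1.01e-06), a core H/ACA protein, Snu13 (1.05 ± 0.10), a core C/D protein, and Ruvbl2 (0.98 ± 0.14), an assembly ATPase, changed most in day 14 versus effector. In effector versus naive 3 of the 10 were lower (30.0%, against 10.4% of all genes), Gar1 (-0.66 ± 0.16), Nhp2 (-0.54 ± 0.15) and Znhit6 (-0.40 ± 0.14).

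Of 44 other 60S factors, 20 were lower and 3 higher in effector than in naive cells (45.5% and 6.82%, against 10.4% and 14.6% of all genes), led by Nle1 (-0.998 ± 0.22), Ppan (-0.89 ± 0.14) and Gnl3 (-0.76 ± 0.12). Of the same list 23 were higher and 10 lower in day 14 than in effector cells (52.3% and 22.7%, against 32.6% and 28.4%), led by Lyar (1.43 ± 0.12, adjusted p = 5.61e-08), Mrto4 (1.22 ± 0.20) and Rsl1d1 (1.04 ± 0.09). The 42 other 40S factors gave 12 lower and 1 higher in effector versus naive (28.6% and 2.38%, against 10.4% and 14.6%), with Bysl (-1.19 ± 0.18), Tsr1 (-0.90 ± 0.16) and Ltv1 (-0.69 ± 0.13) lowest. They gave 17 higher and 3 lower in day 14 versus effector (40.5% and 7.14%, against 32.6% and 28.4%), with Pno1 (1.53 ± 0.19), Bysl (1.48 ± 0.18) and Diexf (-0.90 ± 0.16) widest. Of 13 genes of the RNA exosome, the complex that trims the ends of rRNA precursors, 7 were higher and 4 lower in day 14 than in effector cells (53.8% and 30.8%, against 32.6% and 28.4% of all genes). Mphosph6 (2.26 ± 0.15, adjusted p = 2.21e-09), a cofactor, and Dis3 (1.03 ± 0.11), a nuclease, were higher and Exosc5 (-1.12 ± 0.16), a core subunit, was lower. In effector versus naive Exosc2 (-0.58 ± 0.15) and Dis3 (-0.45 ± 0.11) were lower and Exosc4 (0.58 ± 0.14) was higher.

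Of 10 other genes of polymerase I and its factors, 1 was higher and 4 lower in day 14 than in effector cells (32.6% and 28.4% of all genes were). In effector versus naive 1 was higher and 1 lower (10.0% each, against 14.6% and 10.4% of all genes). Ttf1 (-1.47 ± 0.11, adjusted p = 6.30e-09), the transcription termination factor, and Taf1c (-1.08 ± 0.23), a subunit of the promoter factor SL1, were lower in day 14 than in effector cells. Taf1d (1.12 ± 0.12), another SL1 subunit, was higher in day 14 than in effector cells. Ubtf (0.56 ± 0.09, adjusted p = 0.000363), which organises rRNA gene chromatin, was higher in effector than in naive cells and Taf1d (-0.54 ± 0.12) lower. Of 17 other polymerase III genes 3 were higher and 8 lower in day 14 than in effector cells (17.6% and 47.1%). Brf1 (-1.25 ± 0.11, adjusted p = 8.23e-08), a subunit of initiation factor TFIIIB, and Snapc4 (-1.19 ± 0.14), of the snRNA activating complex, were lowest and Gtf3c5 (1.12 ± 0.15), a TFIIIC subunit, was higher. All 5 subunits that are also part of polymerase II were higher in day 14 than in effector cells, with Polr2h (1.16 ± 0.15, adjusted p = 5.97e-06), Polr2k (1.09 ± 0.36) and Polr2f (0.80 ± 0.23) widest. Polr2h was lower in effector than in naive cells (-0.86 ± 0.15).

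**Figure D5:**
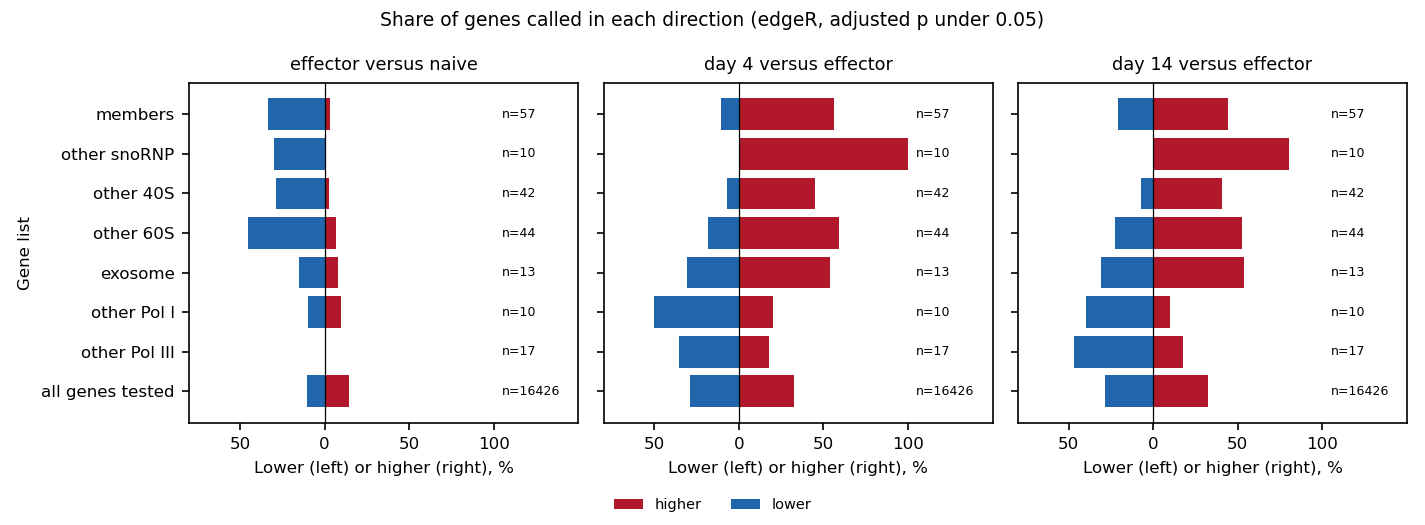
Percentage of genes called higher (right, red) or lower (left, blue) among the 57 members, 6 lists of further pathway genes and all 16426 genes in 3 comparisons. In day 4 versus effector 100% of the other snoRNP list is higher, while in both tumour groups versus effector the other polymerase I and III lists have more genes lower than higher.

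Myc, the gene of that regulator, had 67.2, 71.7 and 87.4 CPM in day 14 cells, 93.8, 139 and 135 CPM in day 4 cells, 85.8, 88.8 and 130.2 CPM in effector cells and 101, 138 and 136 CPM in naive cells. Day 14 libraries were below those of day 4 and naive cells, and Myc was lower in day 14 than in day 4 cells (-0.70 ± 0.20, adjusted p = 0.0379) and naive cells (-0.73 ± 0.20, adjusted p = 0.00654). In day 4 versus effector, where 32 members were higher, Myc differed by 0.27 ± 0.20, adjusted p = 0.249, and in effector versus naive, where 19 members were lower, by -0.30 ± 0.20, adjusted p = 0.303.

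Promoters were searched for short motifs, among them the E-box CACGTG, which MYC binds. RefSeq promoter windows of 250 bases before to 50 bases after a RefSeq start, on GRCm38.p6, were matched for 45 of the 59 members. The RefSeq start nearest the GENCODE gene start was taken, at most 5000 bases away, and need not coincide with it. Among the members without a window were Polr3d, Utp6, Nol6, Utp23, Fbl, Nol4, Nop53, Nol3, Bop1, Polr3a, Rrp12, Npm1 and Utp11. CACGTG, which reads the same on both strands, occurred in 11 of the 45 windows (24.4%), against 10.2% of the 9237 windows of tested protein-coding genes and 8.25% of all 15482. These were Nop2, Pes1, Polr3c, Polr3e, Polr3gl, Nol11, Rrp7a, Utp14b, Utp18, Utp20 and Utp4. On either strand, CCGGAAG, an ETS-type motif, occurred in 14 windows (31.1%, against 19.3% of tested genes). The remaining motifs searched, which are longer and also read the same on both strands, were rare. The first occurred in 0 of the 45 windows (0.0%, against 2.26% of tested genes). The second occurred in 1 of the 45, that of Nol9 (2.22%, against 1.13%). None of these motifs contains another, and a match describes letters only.

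The share of windows with the E-box varied with the comparison and rests on few windows. It occurred in 4 of 16 windows of members that were lower in effector than in naive cells (25.0%) and in 7 of 28 of those not called (25.0%). In day 4 versus effector it occurred in 6 of 27 windows of members called higher (22.2%), in 1 of 3 called lower (33.3%) and in 4 of 15 not called (26.7%). For day 4 versus naive it occurred in 5 of 23 called higher (21.7%), 3 of 6 called lower and 3 of 16 not called (18.8%). For day 14 versus naive the numbers were 2 of 11 higher (18.2%), 2 of 11 lower (18.2%) and 7 of 23 not called (30.4%). For day 14 versus effector they were 3 of 20 higher (15.0%), 1 of 8 lower (12.5%) and 7 of 17 not called (41.2%), and for day 14 versus day 4 they were 1 of 4 lower (25.0%) and 10 of 41 not called (24.4%). None of the 5 snoRNP windows and neither of the windows of Ncl and Nolc1 held it. The E-box windows of 6 members are shown, 3 of polymerase III subunits that were lower in tumour than in naive cells in at least 1 comparison and 3 of processing factors that were higher in day 4 than in effector cells, each 5′ to 3′ on the gene's strand with the E-box in capitals. Its first base is counted from the RefSeq start of the window as 1, with -1 the base before it. That start can differ from the gene coordinates given above.
Polr3e (chr7:120917761-120917810, plus strand, E-box from 6): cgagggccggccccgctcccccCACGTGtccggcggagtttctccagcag
Polr3gl (chr3:96594348-96594397, minus strand, E-box from -194): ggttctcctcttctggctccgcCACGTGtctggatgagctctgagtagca
Polr3c (chr3:96727640-96727689, minus strand, E-box from -237): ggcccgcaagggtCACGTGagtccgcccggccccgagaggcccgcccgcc
Nol11 (chr11:107189397-107189446, minus strand, E-box from -43): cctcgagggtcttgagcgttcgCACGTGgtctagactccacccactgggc
Utp20 (chr10:88826765-88826799, minus strand, E-box from 38): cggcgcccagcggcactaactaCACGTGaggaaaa
Pes1 (chr11:3963955-3964004, plus strand, E-box from 3): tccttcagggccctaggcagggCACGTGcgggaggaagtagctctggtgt

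The full windows of Nop58 and Ncl are shown beside them, as members that were called in most comparisons and whose 300 bases hold no CACGTG.
Nop58 (chr1:59684756-59685055, plus strand): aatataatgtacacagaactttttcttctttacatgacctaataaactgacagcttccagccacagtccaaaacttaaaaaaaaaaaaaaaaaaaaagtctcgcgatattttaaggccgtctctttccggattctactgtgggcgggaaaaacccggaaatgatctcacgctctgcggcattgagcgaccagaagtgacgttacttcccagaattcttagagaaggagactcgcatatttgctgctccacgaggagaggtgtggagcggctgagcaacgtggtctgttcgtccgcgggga
Ncl (chr1:86359406-86359705, minus strand): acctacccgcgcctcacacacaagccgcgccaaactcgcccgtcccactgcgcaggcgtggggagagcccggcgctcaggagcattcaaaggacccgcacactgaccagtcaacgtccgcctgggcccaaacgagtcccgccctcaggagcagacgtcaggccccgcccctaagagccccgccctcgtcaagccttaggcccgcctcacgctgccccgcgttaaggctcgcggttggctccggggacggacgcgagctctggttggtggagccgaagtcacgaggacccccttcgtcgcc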

How the data were processed

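Counts of reads per gene were deposited for 12 libraries, 3 in each of 4 groups taken from the labels. Per the labels' protocols, poly(A) RNA was captured on oligo(dT) beads, amplified as cDNA and made into libraries with Nextera XT after a shallow quality run. Per the submitters' processing notes, fastp 0.19.6, STAR 2.6.1b and GRCm38 were used; how reads were counted, and on which annotation, is not given in these sources. The deposited tables hold 1 unstranded and 2 stranded columns of counts. Between 49.8% and 49.9% of stranded counts fell on 1 strand, so the unstranded column was used. Where genes overlap, reads cannot be assigned to a gene by strand. Reads outside genes (20.7% to 30.2%), ambiguous reads (3.22% to 3.81%) and reads at several places (5.90% to 7.29%) were left out. No molecular identifiers are named.

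Of 55401 identifiers 55141 matched GENCODE M21. Genes were filtered with filterByExpr, scaled by TMM and fitted in 1 edgeR 4.0.16 quasi-likelihood model of 12 libraries (R 4.3.3, robust, 8 residual degrees of freedom), with Benjamini-Hochberg adjustment over 16426 genes. CPM and RPKM (exon-union length) were computed here from the deposited counts. No 2 libraries agreed within sampling noise (chi-square per gene 9.87 or more within groups). The fitting procedure was run on simulated counts with changes in the effector group only, which does not measure error rates in these data. The values of 1 tested member are not reported here, though it stays in the counts and sums; values per library are given for a listed panel and for the called members with the highest and lowest change of each role, and up to 3 called genes of each pathway list are named. The members and lists were chosen with earlier results of these data known. Alternatives were DESeq2 1.42.0, other scaling, no filter, the compared groups alone, a replicate block and leaving out each library.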

Additional observations from a re-analysis of the deposited data

How the results depend on the processing

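Of 165 called member values, 128 were called under all 18 alternatives and 37 were lost under at least 1; of 177 values not called, 41 were gained under at least 1. Called values changed sign in 0 cases, values not called in 86. Without the filter on low counts 9 members were lower in day 14 than in day 4 cells, against 5. With the 2 compared groups alone 1 member was higher in effector than in naive cells, against 2. Leaving out each library gave 3 to 8 members lower in day 14 than in day 4 cells, 14 to 21 lower and 2 to 3 higher in effector than in naive cells, 22 to 28 higher and 6 to 10 lower in day 4 than in naive cells, 12 to 14 higher and 11 to 16 lower in day 14 than in naive cells, 29 to 35 higher and 4 to 7 lower in day 4 than in effector cells, and 24 to 26 higher and 10 to 12 lower in day 14 than in effector cells. Over all genes, day 14 versus day 4 gave 1337 to 2195 calls. The causes were not tested.

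The labels do not say whether replicate numbers pair the libraries, and no pairing was seen. Deviations of libraries with the same number from their group means correlated at -0.09 to 0.10, and those with other numbers at -0.08 to 0.09. Correlations over all genes cannot exclude a pairing that moves few genes. With a replicate block, 2 members were higher and 16 lower in effector than in naive cells, 26 and 8 in day 4 than in naive, 14 and 13 in day 14 than in naive, 32 and 6 in day 4 than in effector, 25 and 12 in day 14 than in effector, and 0 and 4 in day 14 than in day 4 cells. Among the calls lost with the block were those of Nol6 (-0.34), Nol12 (-0.45) and Nolc1 (-0.36) in effector versus naive. The call of Nop14 (-0.31) in day 14 versus day 4 was lost too. Nol4l and Polr3gl, which had few counts in some groups, and Utp14b, whose day 4 libraries spread widely, were among the least precise members.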
